A study of Mus musculus with 37 samples.

Results

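In 3 of 16 mouse livers the transcript of the acute phase protein serum amyloid A1 (Saa1) was present at 1000 CPM (a gene's count per 1 M counts of the library) or more, and these livers are called the high livers here. They were WT replicate 2, TMEM106B-/- replicate 4 and TMEM106B-/-TDP-43Q331K replicate 1. The other 13 livers, 3 or 4 of each genotype, are called the other livers. All came from mice aged 10 months, with 4 libraries in each genotype: WT, TDP-43Q331K (a knock-in of a disease-linked change in TDP-43, which binds RNA), TMEM106B-/- (without a membrane protein of lysosomes) and both together, called the combined genotype. TDP-43Q331K held no high liver. The series has 37 libraries from liver and cortex, and its stated interest is lipid metabolism and obesity under TMEM106B deficiency with TDP-43Q331K. The labels name no inflammatory or other treatment and do not state that libraries are from different animals, so p-values cover the spread between libraries, which may be technical.

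The acute phase response is the change in plasma protein synthesis by which the liver answers infection or tissue injury. Interleukin-6 acts on hepatocytes mainly through STAT3, and interleukin-1 acts through NF-κB, with C/EBP factors taking part at many of the target genes. Serum amyloid A proteins, haptoglobin, hemopexin, fibrinogen and orosomucoids rise, and proteins such as albumin and transthyretin are classed as negative acute phase proteins.

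Because the high livers were chosen by Saa1, differences between them and the other livers describe what accompanied Saa1, and no p-value is given for them. Differences are log2 fold changes ± SE from edgeR with genotype as a covariate, and a gene was called where its Benjamini-Hochberg adjusted p over 16710 genes was under 0.05. Each SE, also for slopes and genotype comparisons, was calculated back from the F statistic of edgeR's test. It is the absolute log2 fold change or slope over the square root of F. In each comparison the values of the high livers are in the order WT, TMEM106B-/-, combined genotype. The high livers had 56.5 to 74.1 M counts and 3.84 to 4.24% mitochondrial counts, against 50.5 to 71.1 M and 3.55 to 6.62% in the other livers. The summed hepatocyte markers were 96338 to 121384 CPM in the high and 107438 to 130180 CPM in the other livers. Tmem106b RNA does not separate the genotypes in these livers, so it checks no label. Atp6v0e2, chosen as a check after its values were seen, was at 3.06 and 5.17 CPM in the high TMEM106B-/- and combined-genotype livers, above the 0.694 CPM that no WT or TDP-43Q331K liver exceeded.

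Saa1 (ENSMUSG00000074115, GRCm38 chromosome 7, 46740497 to 46742980), an apolipoprotein of the acute phase, was at 2067, 2599.8 and 2337 CPM in the high livers. It was at 157, 48.1 and 353 CPM in WT replicates 1, 3 and 4, and at 31.9, 36.1, 54.3 and 47.8 CPM in the TDP-43Q331K livers. It was at 15.2, 15.2 and 49.2 CPM in TMEM106B-/- replicates 1 to 3 and at 48.7, 29.5 and 42.1 CPM in replicates 2 to 4 of the combined genotype. WT replicate 2 thus had the least Saa1 of the high livers and WT replicate 4 the most of the other livers. Neither was near the threshold of 1000 CPM. Its neighbour Saa2 (chromosome 7, 46751790 to 46754313), a near-identical gene, was at 1541, 2183 and 1679 CPM against 5.78 to 152 CPM (median 18.3) in the other livers. The ratio of Saa2 to Saa1 CPM, not scaled to length, was 0.745, 0.840 and 0.719 in the high and 0.237 to 0.621 in the other livers. How reads that fit both genes were counted is not given in the sources used here, so the split between the genes is uncertain.

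**Figure D1:**
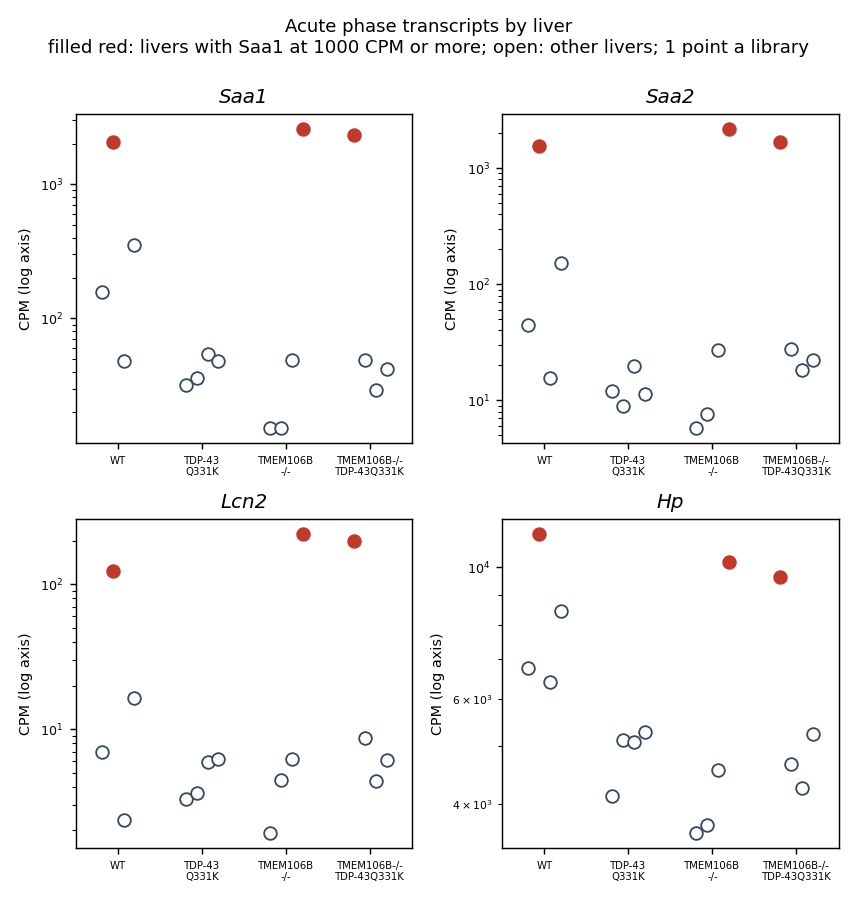
CPM of Saa1, Saa2, Lcn2 and Hp in each liver on log axes, by genotype. Each point is 1 library, with the 3 high livers filled. Saa1, Saa2 and Lcn2 stand far above all other livers in the 3 filled points, and Hp lies above them by a smaller step, with WT replicate 4 at 8434 CPM the nearest.

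Of the 33 positive acute phase genes that passed the filter on low counts, 19 were called higher in the high livers and 0 lower, beside 0.329% of all genes called higher and 0.215% called lower (0.545% in either direction). Their median log2 fold change was 1.04, against -0.01 for all genes. In 15 of the 33 all high livers exceeded all other livers, which held for 0.551% of all genes. All 34 transcripts of the list, including A2m, which did not pass the filter, made up 6.26, 8.34 and 6.08% of all counts in the high livers. In the others they made up 2.77 to 4.89%. Without TMEM106B-/- replicate 4 the count called higher was 7. The 33 include Saa1, whose place was fixed by the choice of livers, and Saa2, its near-identical neighbour. These genes were listed with results of these data known, and the counts describe the list only.

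The promoters of the genes that follow are shown because these transcripts were high together (Saa1, Saa2, Lcn2, Fgb) or in 1 high liver only (Steap4). Each is the 250 bases before the RefSeq start on GRCm38.p6, read 5′ to 3′ on the gene's strand. Capitals mark TTGCNNAA, a core C/EBP motif, and TTCNNNGAA, a core STAT motif, each searched on both strands. The windows are chr7:46742981-46743230 (minus strand), chr7:46751583-46751832 (plus), chr2:32387740-32387989 (minus), chr3:83049864-83050113 (minus) and chr5:7960222-7960471 (plus).
Saa1: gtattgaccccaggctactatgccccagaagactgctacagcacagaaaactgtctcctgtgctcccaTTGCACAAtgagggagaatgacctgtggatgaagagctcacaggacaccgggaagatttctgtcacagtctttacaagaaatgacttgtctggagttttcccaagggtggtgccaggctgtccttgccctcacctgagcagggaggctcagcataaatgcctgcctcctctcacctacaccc
Saa2: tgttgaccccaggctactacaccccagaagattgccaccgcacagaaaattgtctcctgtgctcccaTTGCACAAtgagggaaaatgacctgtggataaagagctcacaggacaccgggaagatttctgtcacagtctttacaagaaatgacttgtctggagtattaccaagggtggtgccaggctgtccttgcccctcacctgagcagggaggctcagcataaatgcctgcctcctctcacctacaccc
Lcn2: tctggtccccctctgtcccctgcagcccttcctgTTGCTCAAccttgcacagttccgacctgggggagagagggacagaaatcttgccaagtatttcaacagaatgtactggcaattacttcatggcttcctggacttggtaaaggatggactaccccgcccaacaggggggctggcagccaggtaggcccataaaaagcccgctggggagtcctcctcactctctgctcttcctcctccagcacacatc
Fgb: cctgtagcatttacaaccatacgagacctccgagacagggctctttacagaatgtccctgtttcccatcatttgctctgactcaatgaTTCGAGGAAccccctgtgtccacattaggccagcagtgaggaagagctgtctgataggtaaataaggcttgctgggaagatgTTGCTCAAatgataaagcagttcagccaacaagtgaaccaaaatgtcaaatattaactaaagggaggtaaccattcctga
Steap4: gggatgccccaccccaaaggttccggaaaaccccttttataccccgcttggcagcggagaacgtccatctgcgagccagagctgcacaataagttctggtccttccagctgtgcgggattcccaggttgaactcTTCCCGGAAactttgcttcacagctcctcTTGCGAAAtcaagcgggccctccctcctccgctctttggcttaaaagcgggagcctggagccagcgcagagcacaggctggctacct
The Saa1 and Saa2 windows were identical at 238 of 251 aligned positions (94.8%), with 11 mismatches and 2 gap positions. All 5 windows held 1 C/EBP match, and Fgb and Steap4 also held 1 STAT match. Of 24 positive acute phase genes with a promoter entry, 13 (54.2%) held the C/EBP motif and 7 (29.2%) the STAT motif. Of 32851 mouse promoters of that length, 9.56% and 7.02% did. These shares are unlike measures, since the list was counted by gene, with a match in any of its entries, and the background by promoter entry. A gene with several entries has more chances of a match. Among the 13 of these genes called higher, Fga, Fgb, Hpx, Lcn2, Orm2, Saa1 and Saa2 held the C/EBP motif and Apcs, Fga, Fgb and Itih4 the STAT motif. A match is a run of letters and was not tested as a binding site.

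Among the secreted antimicrobial and transport proteins, Lcn2 (lipocalin 2, which binds bacterial siderophores; ENSMUSG00000026822, chromosome 2, 32384633 to 32388252) was the most different after the serum amyloids. It was at 124, 224 and 199 CPM in the high livers against 1.92 to 16.4 CPM (median 5.90) in the others, a log2 fold change of 4.93 ± 0.46. No liver of either class overlapped. Orm2, an orosomucoid that carries drugs and lipids in plasma, was at 57.3, 45.3 and 114 CPM against 5.85 to 27.3 CPM (median 10.5, log2 fold change 2.66 ± 0.34), with the combined-genotype liver highest. Orm1 was higher by less, 1304, 1109 and 1369 CPM against 528 to 1127 CPM (median 639.8, log2 fold change 0.94 ± 0.15), and the TMEM106B-/- liver lay below the highest other liver. Orm3 was raised in 1 high liver only, with 2.80, 1.97 and 34.4 CPM against 0.889 to 8.59 CPM. The orosomucoid genes are alike in sequence, and reads may be divided between them.

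The pentraxin Apcs (serum amyloid P) was at 141, 268 and 382 CPM against 59.5 to 144 CPM (median 75.7, log2 fold change 1.62 ± 0.18), and only the WT liver overlapped the others. Crp, the second pentraxin and a minor acute phase protein in mice, was not called, at 279, 345 and 318 CPM against 149 to 319.9 CPM (median 235, log2 fold change 0.45 ± 0.20). Lrg1, a leucine-rich glycoprotein that modulates TGF-β signalling, was at 661, 1378 and 1257 CPM against 259 to 755 CPM (median 328, log2 fold change 1.70 ± 0.27). Here too the WT liver fell inside the range of the others, and the other two high livers were above it. Fgl1, a fibrinogen-like protein secreted by hepatocytes, was at 1083, 683 and 1473 CPM against 143 to 762 CPM (median 211, log2 fold change 2.03 ± 0.24), and WT replicate 4, the highest of the others, exceeded the TMEM106B-/- liver.

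The fibrinogen chains and the scavengers of haemoglobin and haem were called higher. Fgb was at 5983, 11839 and 6708 CPM against 2949 to 5232 CPM (median 4220.5, log2 fold change 1.07 ± 0.15), and Fga (1.07 ± 0.21) and Fgg (1.03 ± 0.17) had the same order, the TMEM106B-/- liver being highest for each. Haptoglobin (Hp), which binds free haemoglobin, was at 11406, 10225 and 9628 CPM against 3572 to 8434 CPM (median 5089.9, log2 fold change 1.04 ± 0.13), and hemopexin (Hpx), which binds haem, at 7122, 6048 and 6531 CPM against 2162 to 4663 CPM (median 3139, log2 fold change 1.04 ± 0.14). For both scavengers the WT liver was the highest and no liver overlapped. Itih3 (958, 1213 and 916 CPM against 308 to 1041 CPM, median 514) and Itih4 (1839.8, 2437 and 2011 CPM against 662 to 1576 CPM, median 919), heavy chains of the inter-α-trypsin inhibitor family, were called at 1.11 ± 0.18 and 1.16 ± 0.18. Serpina10, an inhibitor of factor Xa, and Lbp, which presents lipopolysaccharide to its receptor, were called at 1.12 ± 0.20 and 0.78 ± 0.14.

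The remaining members were uneven between the high livers. The protease inhibitor Serpina3n was called (1.71 ± 0.28) but was at 363 CPM in the WT liver, 1639.8 in the TMEM106B-/- liver and 575 in the combined-genotype liver, against 174 to 310.0 CPM (median 239.7). Serpina3m was called at 0.82 ± 0.17 and Serpina3k was not (0.45 ± 0.16), and these paralogs may share reads. The metallothioneins, small metal-binding proteins, had the largest log2 fold changes of the uncalled members, 3.62 ± 0.92 for Mt1 and 4.26 ± 1.09 for Mt2. Mt1 was at 250.1, 1258 and 116 CPM against 6.70 to 105 CPM (median 18.1), so all high livers were above all others, with a wide spread in each class. Steap4, a metalloreductase, was at 84.8, 709 and 84.1 CPM against 39.5 to 133 CPM (median 59.2) and stood out in the TMEM106B-/- liver alone.

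Several established acute phase genes were not called. Saa3 was at 10.4, 11.96 and 10.7 CPM against 2.09 to 14.6 CPM (median 5.38, log2 fold change 0.93 ± 0.35). Hamp, the iron hormone hepcidin, was at 994, 1665 and 949.7 CPM against 323 to 1605 CPM (median 835, log2 fold change 0.44 ± 0.23), and its paralog Hamp2 was lower, 8.86, 11.2 and 33.6 CPM against 8.93 to 76.8 CPM (median 32.5, log2 fold change -1.02 ± 0.44). The complement genes C3 (0.53 ± 0.17), C4b (0.40 ± 0.16) and Cfb (0.36 ± 0.24), the copper carrier Cp (0.25 ± 0.10) and the interleukin-1 receptor antagonist Il1rn (0.24 ± 0.39) also stayed under the call. A2m did not pass the filter on low counts. None of the 18 negative acute phase genes was called in either direction, their median being -0.06. Albumin (Alb) was at 85437, 85476 and 66147 CPM against 69836 to 93876 CPM, and transthyretin (Ttr) at 9323, 6383 and 6743 CPM against 6842 to 9582 CPM.

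**Figure D2:**
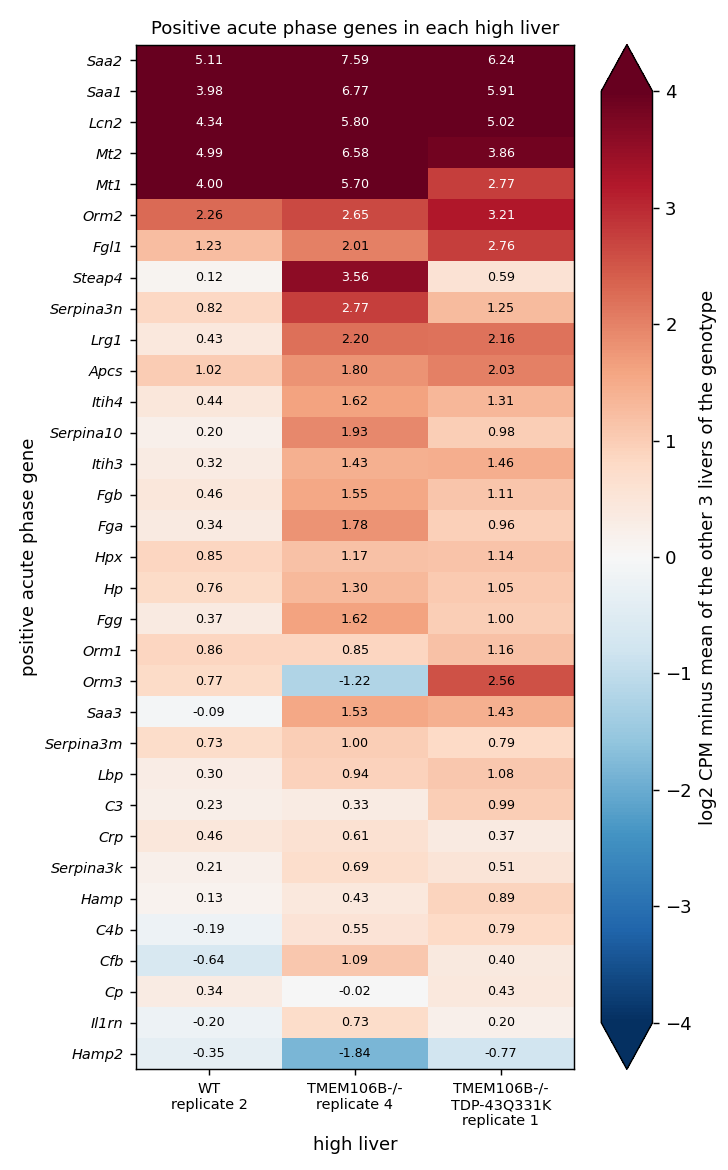
Log2 CPM of the 33 positive acute phase genes (rows, ordered by fold change over all livers) in each high liver (columns), minus the mean of the other 3 livers of its genotype; red is higher and blue lower, and the colours saturate at 4 on either side. Saa1, Saa2, Lcn2 and Mt2 are dark in every column, Steap4 and Serpina3n are strongest in the TMEM106B-/- liver, and Orm3 is strong in the combined-genotype liver only.

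Each high liver was also set against the 3 other livers of its own genotype. The median of the 33 genes was 0.44 in the WT liver, 1.53 in the TMEM106B-/- liver and 1.11 in the combined-genotype liver on the log2 scale, and 8, 21 and 19 of them were more than 2-fold higher. The share of all genes more than 2-fold higher was 3.67, 3.92 and 2.9%. The WT liver's differences were the smallest, and its WT mates included replicates 1 and 4, which had the highest Saa1 among the other livers. Across the 33 genes these differences resembled each other between high livers, with Pearson r of 0.887 for WT and TMEM106B-/-, 0.899 for WT and combined genotype, and 0.838 for the last pair. Across all 16710 genes r was 0.198, 0.063 and 0.163. The 33 include Saa1, by which the livers were chosen, and its near-identical neighbour Saa2. Both can raise the r of the 33, and r without them was not computed. Genes are not independent replicates, and these r describe the livers only.

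The genes most like Saa1 over the 16 livers, by Pearson r of log2 CPM centred within genotype, were Saa2 (0.995), Lcn2 (0.988), Hp (0.979), Hpx (0.965) and Itih3 (0.956), followed by Orm2, Lrg1, Fgb, Fgl1 and Prtn3 (down to 0.940). All but Prtn3 are positive acute phase genes on the list. The 16 livers include the 3 chosen by Saa1, and r without them was not computed. The list was made with results of these data known, so this ranking describes the livers only. Prtn3 encodes proteinase 3, a serine protease of neutrophil granules, and was at 1.88, 16.5 and 19.7 CPM against 0.107 to 1.48 CPM (median 0.631, log2 fold change 5.17 ± 0.75). It was above all other livers in each high liver, by little in the WT liver.

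In the signalling genes upstream of these transcripts, called changes were few. Beside the counts of this and the lists that follow, 0.329% of all genes were called higher and 0.215% lower. Of 22 genes of the interleukin-6 and STAT3 list, 1 was called higher: Stat3 itself, at 117, 194 and 111 CPM against 57.1 to 100.5 CPM (median 70.7, log2 fold change 0.98 ± 0.14), with no overlap. Socs3, the feedback inhibitor of this pathway, was at 22.5, 29.8 and 15.1 CPM against 5.72 to 54.5 CPM (median 11.1), and 1 other liver exceeded all high livers. The receptor genes Il6ra (0.18 ± 0.28) and Il6st (0.17 ± 0.12) were not called. Osmr, the oncostatin M receptor, was at 2.99, 6.33 and 3.46 CPM against 1.45 to 3.12 CPM (median 2.11, log2 fold change 0.93 ± 0.21), also without a call.

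Of 28 genes of the interleukin-1 and NF-κB list, 2 were called higher, the adhesion molecule Icam1 (18.5, 27.6 and 14.3 CPM against 7.11 to 17.2 CPM, median 10.1, log2 fold change 0.91 ± 0.19) and the adaptor Myd88 (20.5, 31.5 and 24.6 CPM against 16.2 to 21.3 CPM, median 18.4, log2 fold change 0.47 ± 0.09). Over 25 alternative fits the call of Icam1 was lost in 15 and that of Myd88 in 10. The interleukin-1 receptor Il1r1 was at 57.9, 126 and 36.1 CPM against 16.9 to 89.8 CPM (median 35.3), highest in the TMEM106B-/- liver and not called. That liver also had the highest Cxcl1, a neutrophil chemokine, at 73.4 CPM against 18.2 and 16.8 in the other two high livers and 6.33 to 27.2 CPM in the others. None of 13 chemokine genes, 28 complement genes or 27 interferon-stimulated genes was called. Of the coagulation genes reported here, the fibrinogen chains were called higher. Of 21 iron and haem genes 3 were called higher, Hp, Hpx and the zinc and iron importer Slc39a14 (276, 469 and 239.7 CPM against 149.9 to 231 CPM, median 212, log2 fold change 0.74 ± 0.12).

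Neutrophil markers were uneven between the high livers. Of 14 markers 7 passed the filter, and 4 of these were called higher, beside 0.329% of all genes. Over 25 alternative fits the call was lost in 1 for S100a8, 2 for Cxcr2, 9 for S100a9 and 19 for Retnlg. S100a8 was at 3.08, 2.58 and 0.421 CPM against 0.107 to 0.859 CPM (median 0.440), and S100a9, its partner in calprotectin, at 7.67, 5.08 and 1.17 CPM against 0.276 to 2.40 CPM (median 1.07). For these 2 genes the WT and TMEM106B-/- livers were above all others, and the combined-genotype liver lay among the others. Cxcr2 (1.49, 1.31 and 0.452 CPM against 0.0921 to 0.761 CPM, median 0.197) and Retnlg (0.815, 0.391 and 0.218 CPM against 0 to 0.218 CPM, median 0.103) had the same order. Against the other livers of its genotype, 6, 5 and 4 of the 7 markers were more than 2-fold higher (3.67, 3.92 and 2.9% of all genes), with medians of 1.53, 2.29 and 1.30 on the log2 scale. In the combined-genotype liver the 4 were Cxcr2, Retnlg, Mmp9 and Elane. Elane, neutrophil elastase, was more than 2-fold lower in the WT liver, at 0.0177, 0.512 and 0.280 CPM against 0.0461 to 0.290 CPM. Prtn3, which is not on this list, was highest in the combined-genotype liver. The sum over the neutrophil list was 7.65 to 21.9 CPM in the high and 2.38 to 9.17 CPM in the other livers, and Ly6g, Camp, Ltf and Mpo were at 0 in at least 1 high liver. Neutrophils also make Lcn2. Their part in the results was not tested, and in whole tissue the number of cells and the RNA per cell cannot be told apart.

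Markers of other cells were not called in the high livers. The Kupffer cell sum was 306 to 432 CPM against 216 to 551 in the other livers, and the endothelial sum 253 to 267 against 218 to 403. The T and NK cell sum was 3.59 to 5.61 CPM against 3.90 to 11.2, with a median log2 fold change of -0.57 over 12 genes. No B cell, monocyte, stellate, bile duct, red cell or adipocyte marker was called.

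Of 25 genes of the unfolded protein response 1 was called, the endoplasmic reticulum chaperone Hsp90b1, at 1337, 1074 and 699 CPM against 473 to 760.3 CPM (median 539.5, log2 fold change 0.81 ± 0.14), and the list's median was 0.45 against -0.01 for all genes. Hspa5, the main chaperone of the compartment, was at 2146, 1679.6 and 900.4 CPM against 403 to 1177 CPM (median 544, log2 fold change 1.31 ± 0.31). Creld2 was at 182, 182 and 59.2 CPM against 21.2 to 79.2 CPM (median 31.8, log2 fold change 1.90 ± 0.41). Neither was called. In both, the WT and TMEM106B-/- livers exceeded all other livers and the combined-genotype liver did not. The transcription factor Ddit3 was high in the WT liver only, at 94.04, 9.86 and 9.99 CPM against 3.64 to 12.5 CPM.

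Genes of hepatocyte metabolism were among those lower in the high livers, where 0.215% of all genes were called lower. Of 28 cytochrome P450 and related genes 1 was called lower, Cyp2a5, which oxidises coumarin and nicotine, at 278, 236 and 457 CPM against 590.2 to 1625 CPM (median 1015, log2 fold change -1.56 ± 0.28), and the list's median was -0.33. Cyp3a25 was also below all other livers, 277, 218 and 347 CPM against 350.0 to 742 CPM (median 504, log2 fold change -0.83 ± 0.22), without a call. Of 20 bile acid and sterol transport genes 2 were called lower, the canalicular sterol transporter Abcg8 (47.6, 38.4 and 50.6 CPM against 65.7 to 121 CPM, median 83.9, log2 fold change -0.88 ± 0.18) and the basolateral exporter Abcc3 (-0.58 ± 0.13). Abcg5, which pairs with Abcg8, was at 55.8, 39.4 and 59.8 CPM against 65.7 to 124 CPM (median 93.4, log2 fold change -0.77 ± 0.18). Peroxisomal thiolase Acaa1b was the 1 of 23 fatty acid oxidation genes called lower (790.1, 1048 and 1687 CPM against 1127 to 3431 CPM, median 1824, log2 fold change -0.85 ± 0.17). The lists were uneven between the high livers. Against the other livers of each genotype the cytochrome P450 medians were -0.30, -0.63 and 0.002, and the bile acid medians -0.09, -0.48 and -0.10. Of the cytochrome P450 list 2, 9 and 0 genes were more than 2-fold lower (6.74, 5.46 and 1.98% of all genes). Over 25 alternative fits the call was lost in 6 for Cyp2a5, 7 for Abcg8, 18 for Abcc3 and 11 for Acaa1b.

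None of 18 fatty acid synthesis genes was called (median -0.50). Against the other livers of each genotype their medians were alike, -0.46, -0.40 and -0.45. More than 2-fold lower were 6, 1 and 1 of them (6.74, 5.46 and 1.98% of all genes). None of 23 cholesterol synthesis genes was called either, and their median was 0.24, with 20 above 0 (47.9% of all genes). Single fatty acid synthesis genes were uneven between the high livers. Thrsp, a lipogenic regulator, was at 51.7, 838 and 930.3 CPM against 357 to 1953 CPM (median 1182), and Fasn, fatty acid synthase, at 260.2, 719 and 1109 CPM against 488 to 2882 CPM (median 1237). Only the WT liver lay below all other livers for both. None of 18 circadian genes was called (median -0.37), and Per3 was at 23.2, 44.2 and 22.8 CPM against 30.3 to 98.5 CPM (median 56.3). The time of tissue collection is not given in the sources used here, and its part was not tested.

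Among the 12 genes per direction with the largest fold changes by the naming rule, several belong to none of these groups. Isyna1, which makes inositol phosphate from glucose 6-phosphate, was at 21.7, 29.2 and 9.05 CPM against 4.25 to 10.2 CPM (median 7.04, log2 fold change 1.61 ± 0.23). Srrm4, a splicing regulator known from neurons, was at 8.34, 10.3 and 10.3 CPM against 2.79 to 8.85 CPM (median 4.17, log2 fold change 1.31 ± 0.21). Inmt, an N-methyltransferase, was below every other liver in each high liver, as were 0.527% of all genes, at 351, 449.9 and 567 CPM against 748 to 1310.3 CPM (median 905, log2 fold change -0.996 ± 0.17). Also below every other liver were the glutathione transferase Gsta4 (32.7, 49.5 and 57.96 CPM against 64.8 to 121 CPM, median 82.9, log2 fold change -0.93 ± 0.17) and the DNA crosslink repair gene Dclre1a (7.63, 12.02 and 8.97 CPM against 12.2 to 27.9 CPM, median 18.5, log2 fold change -0.88 ± 0.15). The kinase Map2k6 was lower (-1.46 ± 0.28), as were Hsd3b2 (-1.06 ± 0.22), Osbpl3 (-1.35 ± 0.24) and Ces2c (-0.88 ± 0.18).

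The largest negative fold changes belonged to Ren1 (renin) and Ctse (cathepsin E), and both turn on 2 genotypes. Ren1 (chromosome 1, 133350510 to 133360325) was at 10.5, 41.1 and 26.9 CPM in TMEM106B-/- replicates 1 to 3 and 0.0270 in the high TMEM106B-/- liver. In the combined genotype it was at 7.70, 38.4 and 24.3 CPM in replicates 2 to 4 and 0.0312 in the high liver. No WT or TDP-43Q331K liver exceeded 0.220 CPM, so the high livers of both TMEM106B-deficient genotypes had Ren1 at the level of WT. Ctse (chromosome 1, 131638306 to 131675505), 1.68 Mb away, was at 22.5, 15.6 and 19.6 CPM against 0.256 in TMEM106B-/-, and at 54.5, 20.6 and 19.9 against 0.234 in the combined genotype. The WT and TDP-43Q331K livers were between 0.0531 and 0.457 CPM.

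Pm20d1, an enzyme that makes N-acyl amino acids, lies 0.122 Mb from Ctse and was also called lower (-0.73 ± 0.11). It was at 88.6 and 96.8 CPM in the high livers of these genotypes and at 133 to 199 CPM in their other livers. Unlike Ren1 and Ctse, its fall was not limited to 2 genotypes. Against the other livers of each genotype its log2 differences were -0.51, -1.08 and -0.63, the first being the WT liver. From 2 Mb before Ctse to 2 Mb after Ren1, 85 genes were tested, and Gm29376 was the 1 gene called besides these 3 (0.215% of all genes were called lower). The window was drawn around Ctse and Ren1 after their values were seen. Atp6v0e2, on another chromosome, did not show this, since the 2 high livers kept 3.06 and 5.17 CPM against 3.29 to 9.23 CPM in their genotype mates. With 1 high liver in each genotype, whether Ren1 and Ctse follow Saa1 or another property of these libraries cannot be told apart. The labels used here give no haplotype of chromosome 1, and whether these 2 livers carry that of their genotype mates was not tested. Nor was their genotype label, beyond Atp6v0e2. The fold changes of Ren1, Ctse and Pm20d1 take the labels as given.

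**Figure D3:**
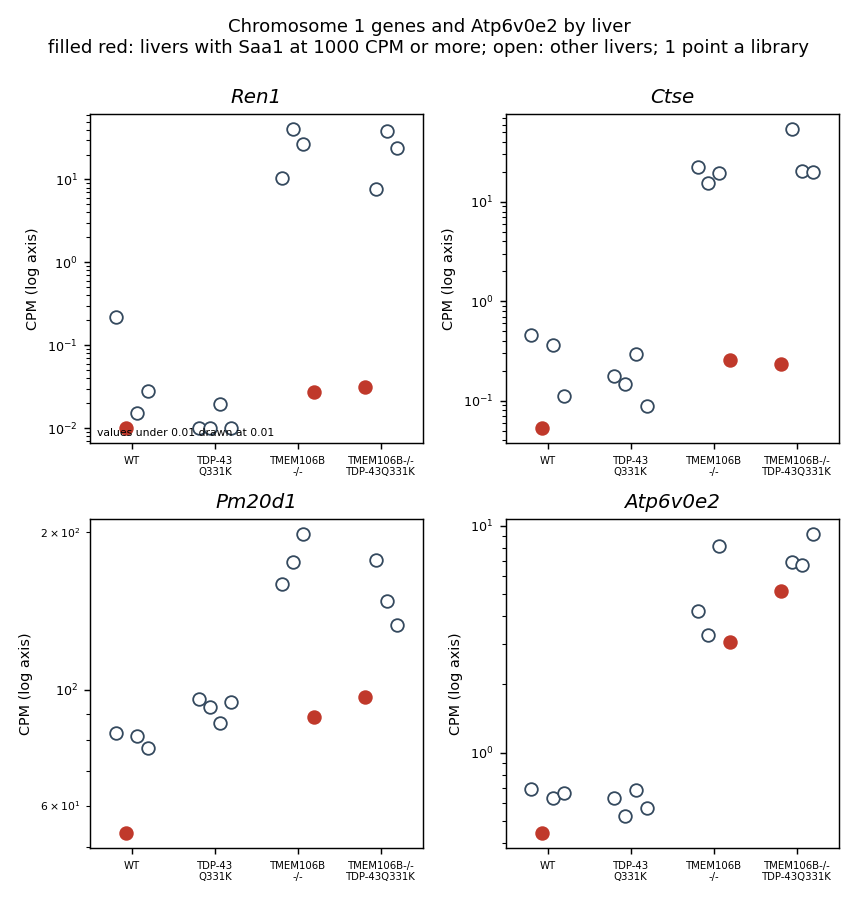
CPM of Ren1, Ctse, Pm20d1 and Atp6v0e2 in each liver on log axes, by genotype, with the 3 high livers filled and values under 0.01 drawn at 0.01. In TMEM106B-/- and the combined genotype the filled points of Ren1 and Ctse lie at the WT level, far below the open points of their own genotype, while Atp6v0e2 stays above the WT level.

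Some transcripts set 1 high liver apart from the rest. By a rule chosen after the data were seen (mean of at least 5 CPM, more than 4-fold from the genotype mates, the extreme of the 16 livers, and the other two high livers within 0.7 log2 units of their mates), 19 genes were higher and 4 lower in the WT liver. The TMEM106B-/- liver had 2 higher and 4 lower, and the combined-genotype liver 1 of each. The 19 included the immediate early and stress genes Junb, Klf6, Klf10, Plk3, Fosl2, Nab2, Trib1 and the heat shock cochaperone Dnajb1. Trib1, a pseudokinase, was at 531, 35.1 and 49.3 CPM against 38.7 to 74.8 CPM (median 52.5). Egr1, a growth-factor-induced transcription factor named after its values were seen, was at 286, 2.81 and 8.12 CPM against 1.74 to 26.6 CPM (median 9.88). The WT liver was the highest of 16 for both, and likewise for Fos (14.7 CPM, others 0.376 to 2.44 CPM), Jun (129 CPM, others 11.6 to 60.02 CPM) and Atf3 (22.9 CPM, others 0.799 to 3.28 CPM). In the TMEM106B-/- liver the 2 higher genes were Steap4 and Fndc3b, and in the combined-genotype liver the gene was Cyp2c40.

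**Figure D4:**
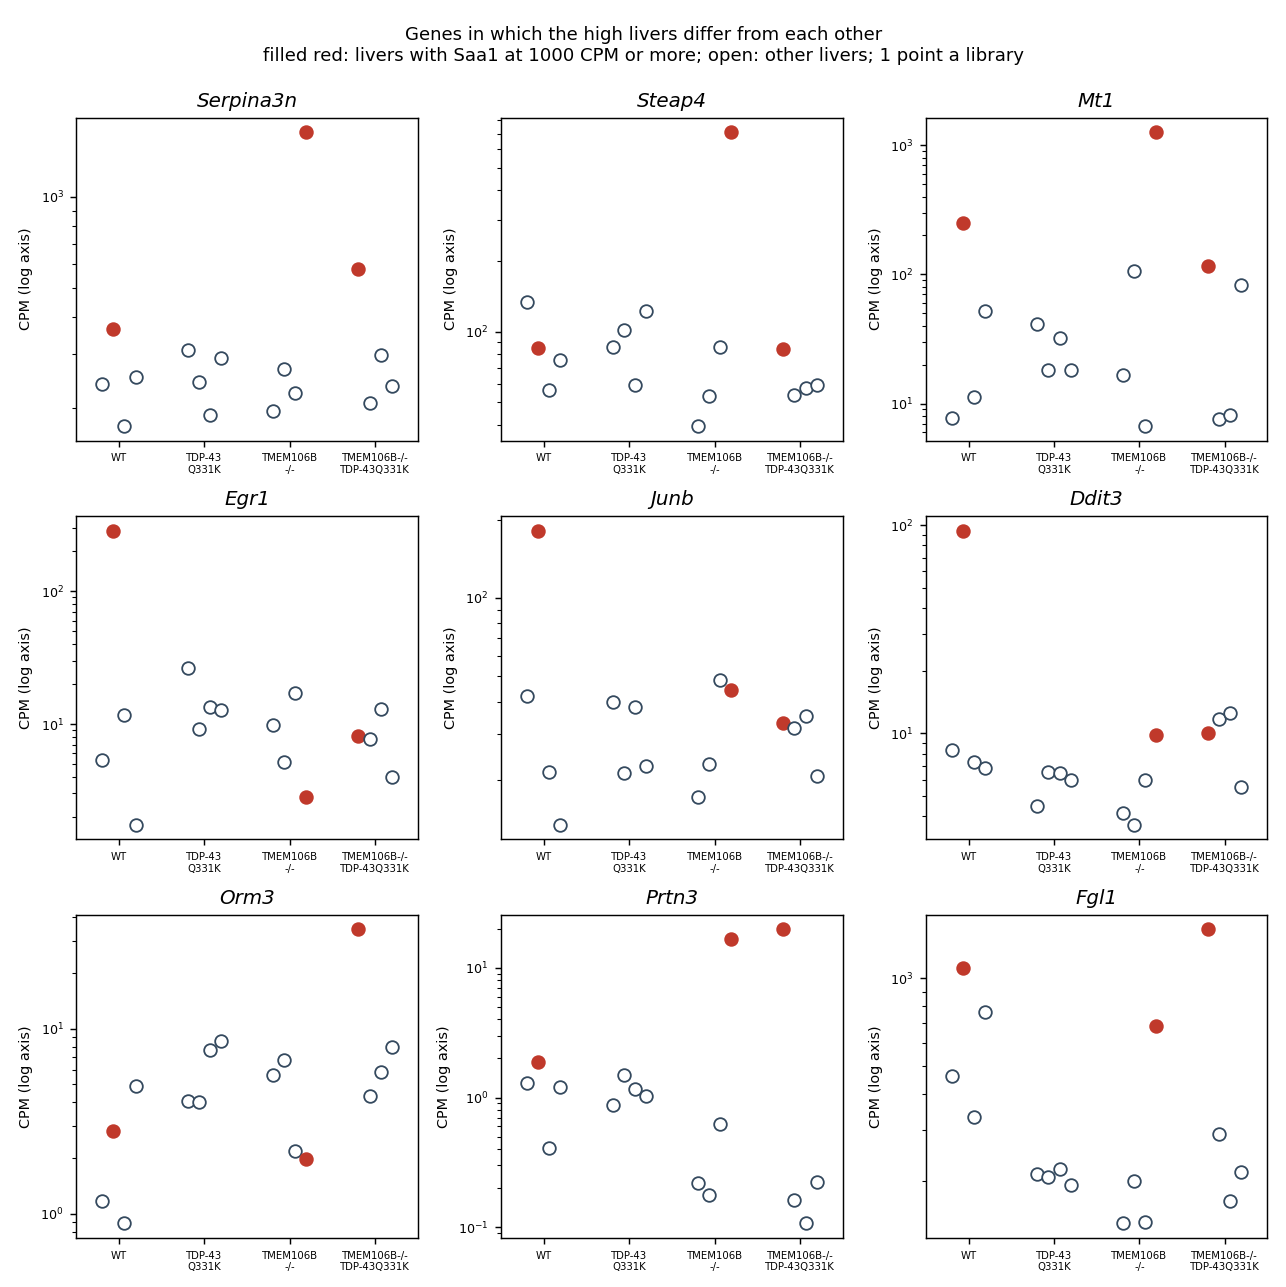
CPM of 9 genes in each liver on log axes, by genotype, with the 3 high livers filled. Egr1, Junb and Ddit3 are high in the WT liver only, Serpina3n, Steap4 and Mt1 are highest in the TMEM106B-/- liver, and Orm3 is high in the combined-genotype liver only.

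The variation of Saa1 among the 13 other livers was not used to choose the high livers, so the remaining genes could be tested on it. Saa1 ran from 15.2 to 353 CPM there. The slope is the log2 change of a gene per log2 unit of Saa1, fitted with genotype as a covariate in edgeR's quasi-likelihood test and adjusted over all genes. Besides Saa1 and Saa2, 3 of 16708 genes were called with a positive slope (0.018%) and 0 with a negative slope. At an unadjusted p under 0.05 there were 271 positive (1.62%) and 247 negative (1.48%) slopes. DESeq2 called 9 genes.

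Lcn2 rose by 0.91 ± 0.12 per log2 unit of Saa1 (adjusted p = 0.0216), close to proportional. It was at 16.4 CPM in WT replicate 4, the other liver with the most Saa1, and at 1.92 CPM in TMEM106B-/- replicate 1, with the least. The second called gene was Ces2b, a carboxylesterase, with 1.64 ± 0.21 (adjusted p = 0.0174), at 0.139 to 12.3 CPM. The third was Lrtm1, a leucine-rich membrane protein, with 0.81 ± 0.11 (adjusted p = 0.0229), at 3.04 to 55.9 CPM. Neither was called in the high livers, where Ces2b was at 0.0177, 1.74 and 0.0623 CPM and Lrtm1 at 4.32, 7.43 and 34.5 CPM. The count of called genes was 1 without WT replicate 4, TDP-43Q331K replicate 1, TMEM106B-/- replicate 1 or 3 or the combined genotype's replicate 3, or with WT replicates 4 and 1 left out, and 0 without TDP-43Q331K replicate 2. Over all alternatives the slope of Lcn2 was 0.49 to 1.03, with adjusted p up to 0.603 (without WT replicates 4 and 1). Of the single libraries left out, WT replicate 3 or 4, TDP-43Q331K replicate 1 or 2 or the combined genotype's replicate 3 lost its call. With no genotype term the slope of Lrtm1 turned to -0.25.

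Of 31 positive acute phase genes besides Saa1 and Saa2, 27 had a slope above 0, against 8166 of 16708 genes in all, with a median of 0.12 against -0.00244. Unadjusted p was under 0.05 with a positive slope for 10 of the 31, and for 1.62% of all genes. These included Itih3 (0.24 ± 0.05, adjusted p = 0.66 in edgeR), Lrg1 (0.29 ± 0.07), Orm2 (0.55 ± 0.14), Hpx (0.21 ± 0.07), Hp (0.18 ± 0.06) and Fgl1 (0.28 ± 0.10), of which none was called. The fibrinogen chains had slopes of 0.09 ± 0.10 (Fga), 0.09 ± 0.06 (Fgb) and 0.09 ± 0.07 (Fgg), and Serpina3n of 0.06 ± 0.11. The count of slopes above 0 was 20 of 31 without WT replicate 3, 23 without WT replicate 4 and 19 without WT replicates 1 and 4. The median slope of the 31 was 0.055 without WT replicate 3.

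**Figure D5:**
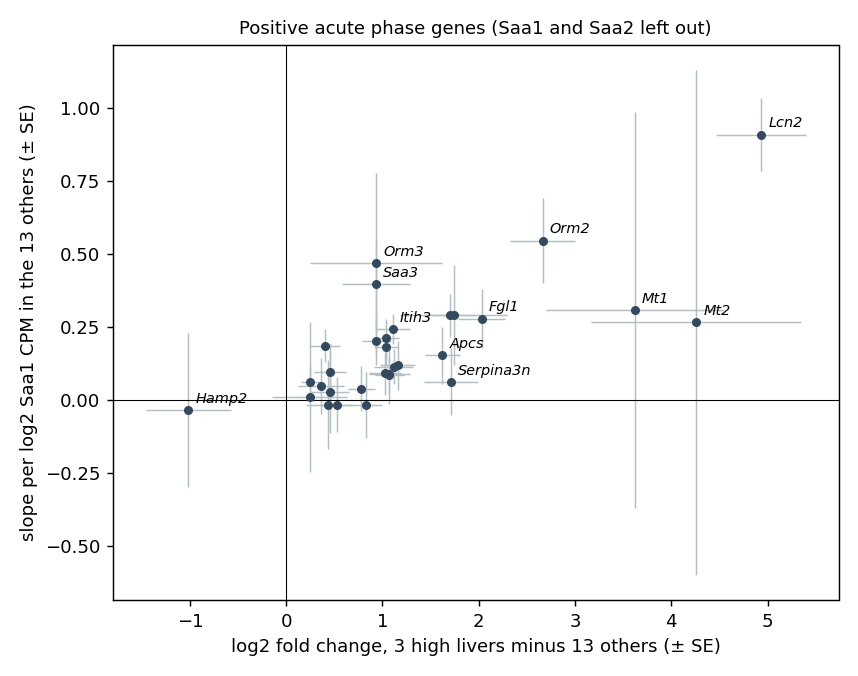
The 31 positive acute phase genes without Saa1 and Saa2, by log2 fold change between the 3 high and 13 other livers (x) and slope on log2 Saa1 CPM within the 13 other livers (y), with bars of 1 SE. Lcn2 is at the upper right with 4.93 and 0.91, most genes lie close above 0 on the y axis, and Mt1 and Mt2 have the widest bars.

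No marker of another cell type was called on the slope. Over all genes 48.9% of slopes were above 0, and 1.62% were positive and 1.48% negative at an unadjusted p under 0.05 in edgeR. Of 15 Kupffer cell markers 13 had a slope above 0, and 9 of these had an unadjusted p under 0.05, among them the complement C1q chains C1qa (0.28 ± 0.09), C1qb (0.27 ± 0.09) and C1qc (0.23 ± 0.09), the macrophage receptor Vsig4 (0.30 ± 0.11) and the lectin Clec4f (0.30 ± 0.11). WT replicate 4 was the highest liver for Clec4f, at 133 CPM against 42.4 to 99.6 CPM in the other 12, and without it 0 of the 15 had an unadjusted p under 0.05. All 27 interferon-stimulated genes had a slope above 0, and 3 had an unadjusted p under 0.05. The pattern turned on single libraries. Without TMEM106B-/- replicate 3, 19 of the 27 slopes were above 0, 0 had an unadjusted p under 0.05, and the median slope was 0.029 against 0.14 with all 13 livers. Without WT replicate 3 the median was 0.42 and 22 had an unadjusted p under 0.05, and with any other single library left out 1 to 9 did. Of 12 endothelial markers 1 had a slope above 0, and Dnase1l3 (-0.20 ± 0.06), Oit3 (-0.23 ± 0.08) and Clec4g (-0.13 ± 0.05) had negative slopes with an unadjusted p under 0.05. Of the 12, 1 had one without WT replicate 4. With no genotype term 10 of the 12 slopes were above 0.

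The high livers bear on the genotype comparisons, since WT, TMEM106B-/- and the combined genotype held 1 each. With all 16 livers, 0 positive acute phase genes were called between TMEM106B-/- and WT, where 1.05% of all genes were called. At an unadjusted p under 0.05 in edgeR, 2 members were higher and 0 lower. For the genotype comparisons no share of all genes at that unadjusted threshold is given, so such counts cannot be set against all genes. Without the high livers 4 were called lower and 0 higher, with 0.389% of all genes called lower and 1.18% in either direction. The livers left out were chosen by Saa1, with which several of these genes vary, so p-values without them are not unbiased tests of genotype. Fgl1 was at 460.3, 333 and 762 CPM in the 3 WT and 143, 200.5 and 144 CPM in the 3 TMEM106B-/- livers, and it fell by 1.61 ± 0.26 on the log2 scale (adjusted p = 0.0107 in edgeR). Hp was at 6780.5, 6403 and 8434 CPM against 3572, 3686 and 4568 CPM (-0.80 ± 0.16, adjusted p = 0.0275 in edgeR). Itih3 (-0.88 ± 0.17) and Itih4 (-0.87 ± 0.18) were the others. Fgl1 alone was called without WT replicate 1, WT replicate 4 or TMEM106B-/- replicate 2, and no gene of the list without TMEM106B-/- replicate 1.

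In the combined genotype against WT, 2 members were called with all 16 livers, where 7.04% of all genes were called. They were Serpina3k (-1.26 ± 0.22, adjusted p = 0.00201 in edgeR) and Hamp2 (2.18 ± 0.52, adjusted p = 0.0232). Without the high livers 8 were called lower and 1 higher, with 2.18% of all genes called lower and 5.43% in either direction. Itih3 was at 391, 319.7 and 308 CPM in the combined genotype against 777, 672 and 1041 CPM in WT. It fell by 1.30 ± 0.17 on the log2 scale. Fgl1, Itih4, Hp, Fgb, Lrg1, Cfb and Serpina3k also fell, and Hamp2 rose. The count was 4 without replicate 3 and 5 without replicate 2 or 4 of the combined genotype, and 6 or 5 without WT replicate 1 or 4.

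Of the other comparisons, TDP-43Q331K against WT called 0 members with and without the high livers (0.263% and 0.0718% of all genes). At an unadjusted p under 0.05 in edgeR, 8 members were lower and 2 higher with all livers, and 10 were lower and 3 higher without the high livers. The shares of all genes in this paragraph are of adjusted calls, so the unadjusted counts have no share beside them. The combined genotype against TDP-43Q331K called Serpina3k with all livers (3.94% of all genes) and Serpina3k and Itih3 without the high livers (4.52%). Against TMEM106B-/- the combined genotype called 0 both times (1.04% and 0.94%), with 4 lower at an unadjusted p under 0.05 in edgeR in both and 1 and 0 higher. The interaction, the effect of TMEM106B loss with TDP-43Q331K minus that without it, called 0 members with all livers (0.688%; 2 higher at an unadjusted p under 0.05) and Fgl1 (1.70 ± 0.35, adjusted p = 0.046 in edgeR) without the high livers (0.658%). That call was kept without WT replicate 3 and lost without any other single library. These comparisons share WT livers, and the livers left out were chosen by Saa1, which is on the list. Without them the common biological coefficient of variation was 0.202, against 0.235 with all livers. The p-values without the high livers are thus not unbiased tests of genotype.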

How the data were processed

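The deposited counts are whole-number read counts per gene with no normalization, 1 table for 16 livers and 1 for 21 cortices, and 1 further cortex column with no sample in the labels was not used. Per the labels' protocols, 700 ng of Trizol RNA entered a directional library kit. Per the submitters' processing notes, trimming and quality control used Trim Galore, cutadapt and FastQC, with builds GRCm38 and mm10. How reads were aligned, counted and assigned by strand is not given in the sources used here, so reads of overlapping genes or near-identical copies may be split. All 55536 genes matched the annotation by identifier.

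Genes were filtered with filterByExpr (minimum count 10, total 15; 16710 kept), scaled by TMM and tested two-sided with edgeR 4.0.16 in R 4.3.3 (robust quasi-likelihood, Benjamini-Hochberg over all genes, threshold 0.05). The designs were high against other livers with genotype (11 residual degrees of freedom), the slope on log2 Saa1 CPM in the 13 other livers with genotype (8), and genotype comparisons with and without the high livers. The common biological coefficient of variation was 0.235 with genotype alone. Totals of 50.5 to 74.1 M counts left the spread between libraries as the main limit. No replicates agreed within sampling noise (chi-square per degree of freedom of at least 31.6). Alternatives were DESeq2 1.42.0, limma 3.58.1 (voom with sample weights), RLE size factors, other filters, terms, thresholds and sample sets, a replicate block, and each library left out. The scripts were tested on simulated data.

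The members and the 32 lists (529 names) were chosen with earlier results of these data known. The rule named list members (up to 6 by largest fold change, more for the acute phase lists), the 12 called genes per direction with the largest fold change, a mean of at least 1 CPM and the same sign in each high liver, the 10 genes most like Saa1, and up to 10 per direction by slope. Further acute phase members, Socs3, Il6ra, Il6st, Alb, Ttr, Pm20d1, Fos, Jun, Atf3 and genes the text marks so were chosen after their values were seen. A further result on the coagulation list is not reported here.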

Additional observations from a re-analysis of the deposited data

Results flagged for a closer look

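A library stood apart from the other 3 of its genotype in 10 of 132 groups of 4 tested by Dixon's criterion for 4 values (gap to the nearest value over the whole range). Chance gives such a value in about 1 of 20 groups, so several are expected among 132 by chance alone. Of the 10, 9 were high livers. These livers were chosen by Saa1 and several of the sums hold acute phase genes, so the rate of chance is no test of that share. In TMEM106B-/- replicate 4 the summed level was 799 CPM for interleukin-1 and NF-κB genes (others 563 to 582), 43304 CPM for coagulation genes (others 21732 to 24285), 22874 CPM for iron and haem genes (others 12337 to 13818) and 3049 CPM for metal and oxidative stress genes (others 872 to 1083). In the combined genotype's replicate 1 it was 15645 CPM for complement genes (others 9862 to 10420), 30597 CPM for coagulation genes (others 19157 to 20456), 23526 CPM for iron and haem genes (others 14200.3 to 15049) and 14536 CPM for fatty acid oxidation genes (others 17884 to 18499), the last being lower. In WT replicate 2 it was 1775 CPM for metal and oxidative stress genes (others 1008 to 1053). The coagulation sums include the fibrinogen chains, the iron and haem sums Hp and Hpx, and the metal sums Mt1 and Mt2. The single flag outside the high livers was TDP-43Q331K replicate 3, with 6.11% mitochondrial counts against 3.91 to 4.23% in its mates.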

How the results depend on the processing

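Between high and other livers 91 genes were called. The count was 592 with DESeq2, 23 with limma-voom, 137 with no filter on low counts, 48 with only the 3 genotypes that hold a high liver, 164 with no genotype term, and 12 (without TMEM106B-/- replicate 4) to 606 (without the combined genotype's replicate 1) with 1 library left out. Positive acute phase genes called higher numbered 11 with limma-voom and 7 to 19 with 1 library left out, against 19. Over 25 alternatives the 91 genes gave 2275 comparisons, in which 0 reversed and 698 lost the call. Apcs, Fgl1, Hp, Hpx, Isyna1, Lcn2 and Saa1 held it in all 25. The slope called 3 genes, against 9 with DESeq2, 6 with no genotype term, 1 without the 2 livers farthest in Saa1, and 0 to 3 with 1 library left out; the slope of Lrtm1 was -0.25 with no genotype term.

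With the class as a term the positive acute phase genes called were 2 for TMEM106B-/- against WT, 4 for the combined genotype against WT and 2 for it against TMEM106B-/-; without the high livers they were 4, 9 and 0, and 2 for the combined genotype against TDP-43Q331K and 1 for the interaction. Leaving out 1 library, an alternative chosen after seeing the data, gave 0 to 7 for TMEM106B-/- against WT, 1 to 10 for the combined genotype against WT, 1 to 3 for it against TDP-43Q331K, 0 to 2 for it against TMEM106B-/-, 0 to 1 for the interaction and 0 to 1 for TDP-43Q331K against WT, over the 16 and the 13 livers. Same-numbered livers did not deviate together in most pairs (r over 0.1 in 7 of 24 pairs, from -0.28 to 0.44). Differently numbered livers were not compared, so whether the numbers carry a pairing or batch was not tested. With the replicate block 41 genes were called between high and other livers, 0 on the slope, and 1 positive acute phase gene (Hamp) for the combined genotype against TMEM106B-/-. Except where fewer libraries or genes were fitted, the cause of these shifts was not tested.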

Other observations

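The cortex libraries that carry the genotype and replicate number of the high livers showed no such levels. The labels do not say that same-numbered liver and cortex came from the same animal, so these are values only. Saa1 was at 0 in the 3 and at most 0.0512 CPM in the other 18 cortices. Lcn2 was at 0.0577 to 0.280 CPM in the 3 and 0.0334 to 1.20 CPM in the other 18. Serpina3n, which astrocytes make in inflamed brain, was at 14.7 to 16.3 against 9.59 to 17.1 CPM. Stat3 was at 41.3 to 43.3 against 39.3 to 49.1 CPM, and Socs3 at 1.64 to 3.74 against 1.84 to 3.97 CPM. Ren1 was at most 0.104 CPM and Ctse at most 0.256 CPM in any cortex, so the level of these genes in the TMEM106B-deficient livers had no counterpart there.

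Igfbp1, a binding protein of insulin-like growth factors that fasting raises, was at 323, 7.05 and 59.8 CPM in the high livers against 2.69 to 48.5 CPM (median 13.4) in the others, and the WT liver was the highest of 16. The gene Gm45774 passed only the filter that asks for 3 libraries, at 0.69, 1.04 and 0.45 CPM in the high livers against at most 0.08 CPM in the others.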
